A study of Mus musculus with 28 samples.

Results

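The CSF1 receptor axis and the genes that mark macrophages in general were followed in mouse tail tendon. The set comprised 10 genes chosen by symbol (*Csf1*, *Il34*, *Csf1r*, *Adgre1*, *Mertk*, *Cd68*, *Lyz2*, *Aif1*, *Tyrobp* and *Cx3cr1*), all 10 of which were found among the 25719 gene identifiers of the count tables. Bulk RNA-sequencing had been carried out on homogenized tail tendon fascicles of C57BL/6 mice, with 1 library per mouse. The Fosl-2(Tg) mice carried a randomly integrated construct in which the promoter of the major histocompatibility complex class I gene H2Kb drives murine *Fosl2*, joined in frame to an eGFP reporter, and WT mice were non-transgenic animals of the same breeding. The early cohort (6 to 8 weeks of age) held 7 WT and 8 Fosl-2(Tg) mice, all male. The established cohort (older than 14 weeks) held 6 WT and 7 Fosl-2(Tg) mice, of which 1 mouse in each genotype was male, so that stage, age and sex cannot be told apart. Each comparison asked whether the transgene was accompanied by a different level of these transcripts at that stage. The promoter is active in most cell types, and the tissue was not sorted. For transcripts made by macrophages, fewer macrophages and less RNA per macrophage therefore cannot be told apart in any value given here. For transcripts that other cells also make, such as *Csf1*, the cells that gave the reads cannot be told apart either.

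CSF1 and IL-34 are the 2 ligands of the receptor tyrosine kinase CSF1R, on which most tissue macrophages depend for survival and proliferation. CSF1 is made by fibroblasts and other stromal cells in most organs, whereas IL-34 is best known from skin and brain. F4/80 (encoded by *Adgre1*), CD68, lysozyme (*Lyz2*) and IBA1 (*Aif1*) serve as general macrophage markers, MERTK binds bridging molecules on dying cells, the adaptor TYROBP passes on signals from receptors such as TREM2, and CX3CR1 is the receptor of the membrane-bound chemokine fractalkine.

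*Fosl2* encodes a subunit of the dimeric transcription factor AP-1, and PU.1 is the transcription factor that defines myeloid cells. The promoters of the genes were therefore searched for the letters of both motifs on both strands, TGACTCA with its reverse complement TGAGTCA for AP-1 and GAGGAA with its reverse complement TTCCTC for the PU.1 core, which do not overlap one another in the matches given here. RefSeq promoter windows of 250 bases before to 50 bases after the transcription start (assembly GRCm38.p6) were at hand for 6 of the 10 genes, namely *Csf1*, *Cd68*, *Lyz2*, *Aif1*, *Cx3cr1* and *Mertk*, and not for *Adgre1*, *Csf1r*, *Il34* and *Tyrobp*. Among all 32851 windows of this length, 5.2% held an AP-1 match, 0.222% held 2 or more, and 28.3% held a PU.1 core. *Cd68* held 2 AP-1 matches, at positions -149 and -24 from the start, and 2 PU.1 cores, at positions -225 and 29. *Aif1* held 1 PU.1 core at position -7 and no AP-1 match, and the windows of *Csf1*, *Lyz2*, *Cx3cr1* and *Mertk* held neither. The 250 bases before the start are shown for the 2 genes with a match and for *Cx3cr1*, the member that differed most between genotypes, in the direction of transcription and with the matches in capitals; these 3 were chosen after their values were seen. They lie on the minus strand at chr11:69666171-69666420 for *Cd68*, chr17:35176053-35176302 for *Aif1* and chr9:120068297-120068546 for *Cx3cr1*.
Cd68: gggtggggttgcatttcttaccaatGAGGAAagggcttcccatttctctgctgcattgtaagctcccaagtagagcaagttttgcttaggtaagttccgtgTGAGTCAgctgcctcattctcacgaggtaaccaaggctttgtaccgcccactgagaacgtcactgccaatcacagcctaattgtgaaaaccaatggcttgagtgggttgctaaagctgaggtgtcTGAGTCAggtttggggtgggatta
Aif1: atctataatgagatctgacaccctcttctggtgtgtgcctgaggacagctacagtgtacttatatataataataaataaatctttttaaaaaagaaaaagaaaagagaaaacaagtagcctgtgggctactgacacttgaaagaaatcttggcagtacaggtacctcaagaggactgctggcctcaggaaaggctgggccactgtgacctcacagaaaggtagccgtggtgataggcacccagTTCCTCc
Cx3cr1: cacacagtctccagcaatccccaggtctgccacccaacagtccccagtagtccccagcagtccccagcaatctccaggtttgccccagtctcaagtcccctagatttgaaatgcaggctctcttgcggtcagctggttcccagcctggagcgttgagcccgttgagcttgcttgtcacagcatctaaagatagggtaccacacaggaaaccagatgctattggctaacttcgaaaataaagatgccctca
A match describes these letters only, and whether any match bears on the level of a transcript was not tested. The transcript whose window held both AP-1 matches, *Cd68*, had log2 fold changes between the genotypes of -0.11 early and 0.05 at the established stage, neither of which passed the test given further on.

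Expression is given as CPM, the counts of a gene relative to the library total, after scaling of the libraries with the TMM method. Library totals ranged from 9645598 to 66894396 counts, with group medians between 16638405 and 26998780.5. *Fosl2* itself was at 58.8 to 136 CPM in early WT and 63.4 to 156 CPM in early Fosl-2(Tg) mice, and at 78.1 to 169 and 121 to 160 CPM in the established cohort, so that the ranges overlapped and neither difference passed an FDR of 0.05 (edgeR's quasi-likelihood test with Benjamini-Hochberg adjustment, FDR = 0.918 and 0.141). The 9 defining markers of macrophages (*Adgre1*, *Csf1r*, *Cd68*, *Mertk*, *Fcgr1*, *C1qa*, *C1qb*, *C1qc* and *Mpeg1*) were all detected in every group, and their summed level was between 448 and 889 CPM in all mice. *Mertk*, 1 of the 9, correlated negatively with *Adgre1* between mice of the same group, as given further on. Marker lists of several other leukocytes were low. The 12 neutrophil genes summed to 0.584 to 10.02 CPM, the 6 B cell genes to 0.433 to 2.03 CPM, the 9 T and NK cell genes to 0.555 to 1.95 CPM and the 6 mast cell genes to 0.304 to 6.86 CPM. The 10 monocyte genes summed to 20.8 to 105 CPM and the 9 dendritic cell genes to 9.24 to 50.4 CPM. The 12 skeletal muscle genes, by contrast, summed to between 54.8 and 21720 CPM and varied widely within every group.

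Levels of different genes were compared as CPM per kilobase of annotated exon. *Lyz2* led in all 4 groups, with 112 ± 22.6 CPM per kb in early WT (SD, n = 7) and 116 ± 30.9 CPM per kb in established Fosl-2(Tg) tendons (SD, n = 7), and its range lay above that of every following gene. *Csf1r*, *Csf1* and *Tyrobp* came next, at means of 22.7 to 38.5 CPM per kb, and overlapped one another in each group. *Cd68* and *Mertk* followed at 13.1 to 18.7 CPM per kb and were not separated from each other in any group, and *Adgre1* was at 7.78 to 13.2 CPM per kb. *Il34*, at 2.13 to 4.25 CPM per kb, lay below *Adgre1* without overlap in all 4 groups. *Cx3cr1* (0.303 to 2.19 CPM per kb) and *Aif1* (0.308 to 0.625 CPM per kb) were the lowest, and their ranges overlapped in all 4 groups. *Cx3cr1* had the higher mean of these last 2 genes in each group other than established Fosl-2(Tg).

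**Figure D1:**
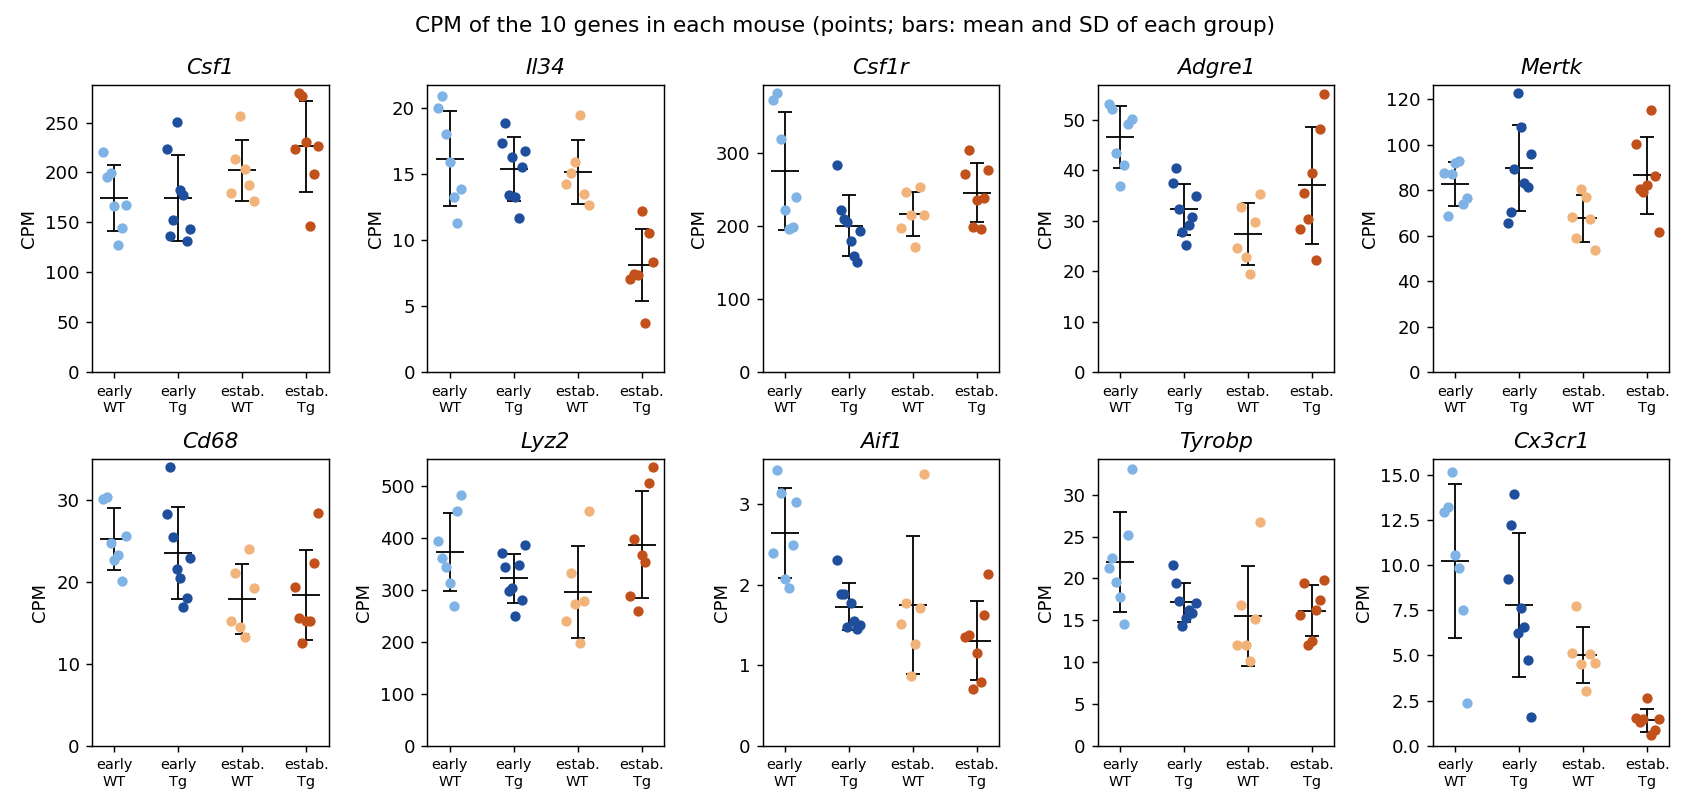
CPM of the 10 genes (vertical axes, linear and starting at 0) in each of the 28 mice, by cohort and genotype; points are mice, and bars give the mean and SD of each group. The established Fosl-2(Tg) mice lay below all established WT mice for *Il34* and *Cx3cr1*, while the genotypes overlapped for the other 8 genes at both stages.

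In the early cohort none of the 10 genes passed an FDR of 0.05 with edgeR, where 0.0396% of the 15138 genes tested were called (6 genes). *Adgre1*, 1 of the 10 genes, passed in 2 of 10 alternatives. These were the edgeR fit that kept the replicate number as a block (FDR = 0.0200) and DESeq2 (FDR = 0.00382). Of the 10 genes, 8 had a lower mean in Fosl-2(Tg) than in WT mice, with a median log2 fold change of -0.29 beside -0.01 over all genes tested, and 4 of 10 had an unadjusted p under 0.05 (*Adgre1*, *Aif1*, *Csf1r* and *Tyrobp*, all lower), as did 917 of all genes tested. Of the early replicate numbers 7 occur in both genotypes, although the labels state no pairing of these mice. *Adgre1*, *Aif1*, *Csf1r* and *Lyz2* were lower in the transgenic mouse of all 7 same-numbered pairs. The ranges of the genotypes overlapped for all 10 genes, as for all but 0.0528% of those tested. In the established cohort 2 of 10 genes passed, both lower, where 6.51% of the 15862 genes tested were called and 3.37% were called as lower. The median over the 10 genes was 0.12 beside 0.005 over all genes tested, and 7 of 10 had a higher mean in Fosl-2(Tg) mice. The genotype effect differed between the stages for 2 of 10 genes, where 7.43% of 16082 genes were called.

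**Figure D2:**
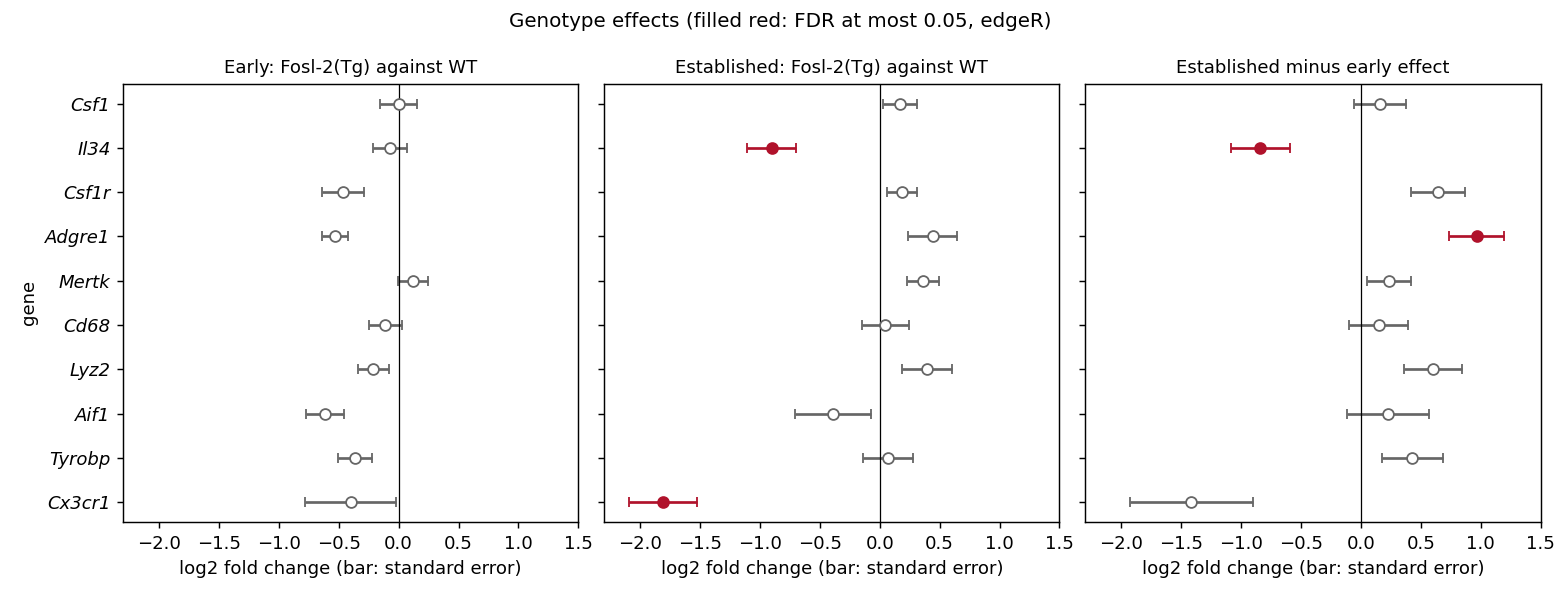
Log2 fold changes between Fosl-2(Tg) and WT mice (horizontal axes, with standard errors) in the early cohort, in the established cohort, and the difference between these effects; filled red points passed an FDR of 0.05. *Il34* and *Cx3cr1* passed in the established cohort, and *Adgre1* and *Il34* differed in their effects between the cohorts.

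Of the ligands of CSF1R, *Il34* fell at the established stage. *Il34* (ENSMUSG00000031750, GRCm39, chromosome 8, 111423928 to 111532584, minus strand) was at 11.3 to 20.9 CPM in early WT mice (median 15.9) and at 11.7 to 18.9 CPM in early Fosl-2(Tg) mice (median 15.9). In the established cohort it was at 12.7 to 19.5 CPM in WT (median 14.7) and at 3.75 to 12.2 CPM in Fosl-2(Tg) mice (median 7.46). The genotypes thus covered the same range early and did not overlap later, when all 7 transgenic mice lay below the lowest WT mouse, a separation shared by 3.81% of all genes tested in that cohort. *Il34* fell by a log2 fold change of -0.90 (standard error, SE, 0.20, FDR = 0.0256), to 8.11 ± 2.70 CPM (SD, n = 7) from 15.2 ± 2.43 CPM (SD, n = 6), whereas its early log2 fold change was -0.07 (SE 0.14, FDR = 0.952). The effect differed between the stages by -0.84 (SE 0.25, FDR = 0.0388), which passed in 6 of 8 alternatives and missed the threshold on plain library totals (-0.35, FDR = 0.249) and without a filter on low counts (FDR = 0.05001). The established fall was found with every other scaling, filter, covariate and test tried, among them females only (-0.81, FDR = 0.0225), but it missed the threshold when any 1 of 5 mice was left out, namely Fosl-2(Tg) 1 or 2 (FDR = 0.0544 and 0.0521) or WT 1, 2 or 4 (FDR = 0.0506, 0.0509 and 0.0576). The gene shares 100 exon bases with *Vac14* on the opposite strand, and without a stated strand setting reads from these bases cannot be told apart.

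*Csf1* (ENSMUSG00000014599, chromosome 3, 107648364 to 107667806, minus strand) was at 128 to 221 CPM in early WT, 131 to 250 CPM in early Fosl-2(Tg), 172 to 257 CPM in established WT and 147 to 280 CPM in established Fosl-2(Tg) mice, with medians of 167, 165, 196 and 226 CPM. Genotypes overlapped at both stages, with an established log2 fold change of 0.17 (SE 0.14, FDR = 0.466). Within each library *Csf1* exceeded *Il34* per kilobase of exon, by 6.05 to 8.29 times in early WT (median 7.16), 4.69 to 9.95 times in early Fosl-2(Tg) (median 7.86), 6.76 to 10.4 times in established WT (median 8.90) and 12.2 to 25.4 times in established Fosl-2(Tg) mice (median 20.5). This ratio needs no scaling between libraries, and its ranges in the established genotypes did not overlap. It was formed after the values of both genes were seen. *Il34* alone already did not overlap between these genotypes, so the separation of the ratio is no independent evidence.

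The receptor itself, *Csf1r* (ENSMUSG00000024621, 7361 annotated exon bases), was at 197 to 383 CPM in early WT (median 241), 151 to 284 CPM in early Fosl-2(Tg) (median 200), 172 to 254 CPM in established WT (median 215) and 196 to 304 CPM in established Fosl-2(Tg) mice (median 239). It was lower in 7 of 8 early transgenic mice than the WT mean, with a log2 fold change of -0.46 (SE 0.17, FDR = 0.748). With the muscle score as a covariate this value was -0.24. *Csf1r* correlated with that score at r = -0.86 in early WT, -0.40 in early Fosl-2(Tg), 0.55 in established WT and -0.11 in established Fosl-2(Tg) mice. Over all 28 mice this did not pass the adjustment (r = -0.30, rho = -0.28, adjusted permutation p = 0.469 and 0.604), with r = -0.50 without the 2 farthest mice. In the established cohort the log2 fold change was 0.19 (SE 0.12, FDR = 0.343). These effects differed by 0.64 (SE 0.22, FDR = 0.0721), which did not pass with edgeR but passed with DESeq2 (FDR = 0.0477) and with limma voom (FDR = 0.0100). Within the early groups, *Csf1r* was lower in the mice with more counts in all (r of -0.80 in WT and -0.88 in Fosl-2(Tg) mice), while r was -0.23 in established WT and 0.33 in established Fosl-2(Tg) mice, and over all 28 mice the relation did not pass the adjustment (r = -0.40, rho = -0.37, adjusted permutation p = 0.164 and 0.293; r = -0.38 without the 2 mice farthest on the library total). In early WT and early Fosl-2(Tg) mice, r with the library total was also -0.80 and -0.87 for *Cd68* and -0.92 and -0.80 for *Il34*. It was -0.09 and -0.82 for *Adgre1*, 0.27 and -0.78 for *Tyrobp*, 0.38 and -0.66 for *Lyz2*, and 0.08 and 0.45 for *Mertk*. None of these relations passed over the 28 mice. *Csf1r* shares 1461 exon bases with *Hmgxb3* on the opposite strand.

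Downstream of the receptor and among the transcription factors of myeloid cells, 3 of 18 genes rose in established Fosl-2(Tg) tendons, where 3.14% of all genes tested were called as higher. None fell, and the median log2 fold change was 0.20 beside 0.005 over all genes tested. *Mitf*, a transcription factor of osteoclasts and other myeloid cells as well as of melanocytes, rose from 40.5 ± 7.08 CPM in WT (SD, n = 6) to 83.1 ± 20.5 CPM (SD, n = 7), by 1.04 (SE 0.16, FDR = 0.00844). *Runx1*, which encodes a haematopoietic transcription factor that stromal cells also express, rose by 0.47 (SE 0.13, FDR = 0.0414) and *Inpp5d*, encoding the lipid phosphatase SHIP1, by 0.53 (SE 0.14, FDR = 0.0447). In the early cohort none of the 18 passed, the median was -0.38, and the smallest p belonged to *Ptpn6* (-0.58, FDR = 0.634) and *Nrros* (-0.49, FDR = 0.647). None of the 7 tested genes for other colony-stimulating factors and their receptors passed at the established stage, where *Kitl*, encoding stem cell factor, had a log2 fold change of 0.69 (FDR = 0.0699) and *Csf2rb*, the shared beta subunit, 0.59 (FDR = 0.147). None of 6 passed early, where *Flt3l* (-0.67, FDR = 0.728) and *Csf2ra* (-0.43, FDR = 0.812) had the smallest p.

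*Adgre1* (ENSMUSG00000004730, chromosome 17, 57665573 to 57790527, plus strand), encoding the surface receptor F4/80, showed effects of opposite sign at the 2 stages. It was at 36.8 to 53.1 CPM in early WT mice (median 49.2) and at 25.3 to 40.5 CPM in early Fosl-2(Tg) mice (median 31.5). All 8 transgenic mice were below the WT mean and 6 were below the lowest WT mouse. In the established cohort it was at 19.4 to 35.2 CPM in WT (median 27.1) and 22.2 to 55.1 CPM in Fosl-2(Tg) mice (median 35.4), of which 4 of 7 were above the highest WT mouse. The early log2 fold change was -0.53 (SE 0.11, FDR = 0.150) and the established one 0.44 (SE 0.20, FDR = 0.184), so that neither passed on its own. The difference of 0.97 between them did (SE 0.23, FDR = 0.0132), and it passed under all 8 alternatives run for it (FDR from 0.000484 to 0.0173). Erythroid genes moved in the same directions, as given with the other cell types, and their part in this difference was not tested. In the early fit that kept the replicate number as a block, *Adgre1* passed (-0.56, FDR = 0.0200), as it did with DESeq2 (-0.53, FDR = 0.00382). With the muscle score as a covariate the early value was -0.44 (FDR = 0.405). *Adgre1* correlated with that score at r = -0.77 in early WT, -0.39 in early Fosl-2(Tg), 0.75 in established WT and -0.29 in established Fosl-2(Tg) mice. The established difference passed in 2 of 12 alternatives, among them limma voom (0.63, FDR = 0.0272), and in 0 of 13 fits with 1 mouse left out.

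None of the other general markers passed at either stage. *Lyz2* (ENSMUSG00000069516, chromosome 10, 117111557 to 117118346), which encodes macrophage lysozyme and whose reads may be shared with its paralog *Lyz1*, was at 269 to 482 CPM in early WT, 249 to 385 CPM in early Fosl-2(Tg), 197 to 452 CPM in established WT and 259 to 535 CPM in established Fosl-2(Tg) mice. Its log2 fold changes were -0.21 (FDR = 0.846) and 0.40 (FDR = 0.240). *Cd68* (ENSMUSG00000018774, chromosome 11, 69555037 to 69557067), encoding a lysosomal membrane protein, was at 20.1 to 30.4, 17.0 to 33.9, 13.3 to 24.0 and 12.5 to 28.4 CPM in the same order, with log2 fold changes of -0.11 (FDR = 0.921) and 0.05 (FDR = 0.898). Genotypes overlapped throughout for both genes. *Aif1* (ENSMUSG00000024397, chromosome 17, 35387384 to 35395053), encoding the actin-binding protein IBA1, was at 1.97 to 3.43 CPM in early WT and 1.46 to 2.31 CPM in early Fosl-2(Tg) mice, where 7 of 8 transgenic mice were below the lowest WT mouse. The early log2 fold change was -0.62 (SE 0.16, FDR = 0.442), and the established one was -0.39 (SE 0.31, FDR = 0.443), from 0.867 to 3.37 CPM in WT and 0.702 to 2.13 CPM in transgenic mice. *Aif1* rested on only 11 to 108 counts per mouse.

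Of 20 further general macrophage genes, 3 rose and none fell in established Fosl-2(Tg) tendons, beside 3.14% of all genes tested called as higher. Of the 20, 17 had a positive log2 fold change, as had 8048 of the 15862 genes tested, and the median was 0.20. *Mpeg1*, encoding the pore-forming protein perforin-2, rose by 1.38 (SE 0.32, FDR = 0.0280), *Ctss*, encoding the lysosomal protease cathepsin S, by 1.13 (SE 0.25, FDR = 0.0228), and *Cybb*, the catalytic subunit of the phagocyte NADPH oxidase, by 0.49 (SE 0.14, FDR = 0.0482). In the early cohort none of the 20 passed, 19 had a negative log2 fold change and the median was -0.36, with *Cd53* (-0.53, FDR = 0.434) and *Cd86* (-0.62, FDR = 0.449) at the smallest p. The effects differed between the stages for 5 of the 20, beside 7.43% of all genes tested, and all 20 differences were positive, with a median of 0.56 beside 0.02 over all genes tested.

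*Tyrobp* (ENSMUSG00000030579, chromosome 7, 30113170 to 30117010, plus strand) was at 14.6 to 33.1 CPM in early WT (median 21.2), 14.3 to 21.6 CPM in early Fosl-2(Tg) (median 16.7), 10.2 to 26.7 CPM in established WT (median 13.6) and 12.04 to 19.8 CPM in established Fosl-2(Tg) mice (median 16.2). All 8 early transgenic mice were below the WT mean (log2 fold change -0.36, SE 0.14, FDR = 0.752), and the established log2 fold change was 0.07 (SE 0.21, FDR = 0.849). Among its receptors and signalling partners, 1 of 8 tested genes rose at the established stage, where 3.14% of all genes tested were called as higher. This was *Syk*, the tyrosine kinase that the adaptor recruits (0.48, SE 0.11, FDR = 0.0252). None of 7 passed early, where *Fcer1g*, encoding a related adaptor (-0.49, FDR = 0.442), and *Clec5a* (-0.61, FDR = 0.496) had the smallest p.

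*Mertk* (ENSMUSG00000014361, chromosome 2, 128540729 to 128645080, plus strand), the receptor for apoptotic cells, was at 68.5 to 92.8 CPM in early WT (median 87.1), 65.7 to 123 CPM in early Fosl-2(Tg) (median 86.4), 53.6 to 80.3 CPM in established WT (median 67.7) and 61.5 to 115 CPM in established Fosl-2(Tg) mice (median 82.3). In the established cohort 5 of 7 transgenic mice were above the highest WT mouse, with a log2 fold change of 0.36 (SE 0.14, FDR = 0.116), beside 0.12 early (SE 0.12, FDR = 0.916). Between mice of the same group *Mertk* was lower where *Adgre1* was higher (r = -0.78), and the cells that gave its reads were not identified. Of 12 further genes of apoptotic-cell uptake none passed at either stage. At the established stage *Mfge8*, encoding a bridging molecule, had a log2 fold change of -0.70 (FDR = 0.0733) and *Elmo1*, an activator of engulfment, 0.37 (FDR = 0.122), and in the early cohort the smallest p belonged to *Cd36* (-0.45, FDR = 0.666) and *Timd4* (-0.70, FDR = 0.749).

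*Cx3cr1* (ENSMUSG00000052336, chromosome 9, 119877749 to 119898945, minus strand) fell most of the 10 genes in established Fosl-2(Tg) tendons. It was at 3.05 to 7.73 CPM in WT mice (median 4.83) and at 0.577 to 2.62 CPM in Fosl-2(Tg) mice (median 1.46), without overlap. The log2 fold change was -1.81 (SE 0.28, FDR = 0.00804), which is 3.50 times lower. Counts behind these values were small in transgenic mice, from 8 to 62 per mouse, beside 61 to 279 in WT mice. In the early cohort it was at 2.39 to 15.2 CPM in WT (median 10.5) and 1.59 to 13.9 CPM in Fosl-2(Tg) mice (median 7.09), with a log2 fold change of -0.40 (SE 0.38, FDR = 0.910) and with WT mouse 7 and Fosl-2(Tg) mouse 8 below all others of their group. The early value was -0.25 without that Fosl-2(Tg) mouse, -0.58 without that WT mouse and -0.17 with the replicate block. The established fall passed in all 12 alternatives (log2 fold change -1.87 to -1.50) and with each mouse left out in turn (-2.02 to -1.64, FDR from 0.00390 to 0.0239). Its difference from the early effect, -1.42 (SE 0.51, FDR = 0.0838), passed only with DESeq2 (FDR = 0.0474) among the 8 alternatives.

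Within each established library, *Cx3cr1* was 0.0981 to 0.179 times as high as *Adgre1* per kilobase in WT mice (median 0.140). In Fosl-2(Tg) mice it was 0.0138 to 0.0502 times as high (median 0.0280), again without overlap. *Cx3cr1* alone already did not overlap, and *Adgre1* had the higher mean in Fosl-2(Tg) mice, so this separation is no independent evidence. In the early cohort this ratio was 0.0360 to 0.264 in WT and 0.0344 to 0.325 in Fosl-2(Tg) mice, with medians of 0.184 and 0.179. *Csf1* over *Csf1r*, in comparison, overlapped between the established genotypes, at 0.926 to 1.49 in WT and 0.938 to 1.74 in Fosl-2(Tg) mice. The ligand *Cx3cl1*, encoding fractalkine, had an established log2 fold change of -0.97 (SE 0.32, FDR = 0.0780), and its sheddases *Adam17* and *Adam10* had 0.21 (FDR = 0.0784) and 0.12 (FDR = 0.423), so that none of these 3 genes passed. None passed early either, with *Adam17* at -0.04 (FDR = 0.943) and *Adam10* at -0.01 (FDR = 0.982).

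**Figure D3:**
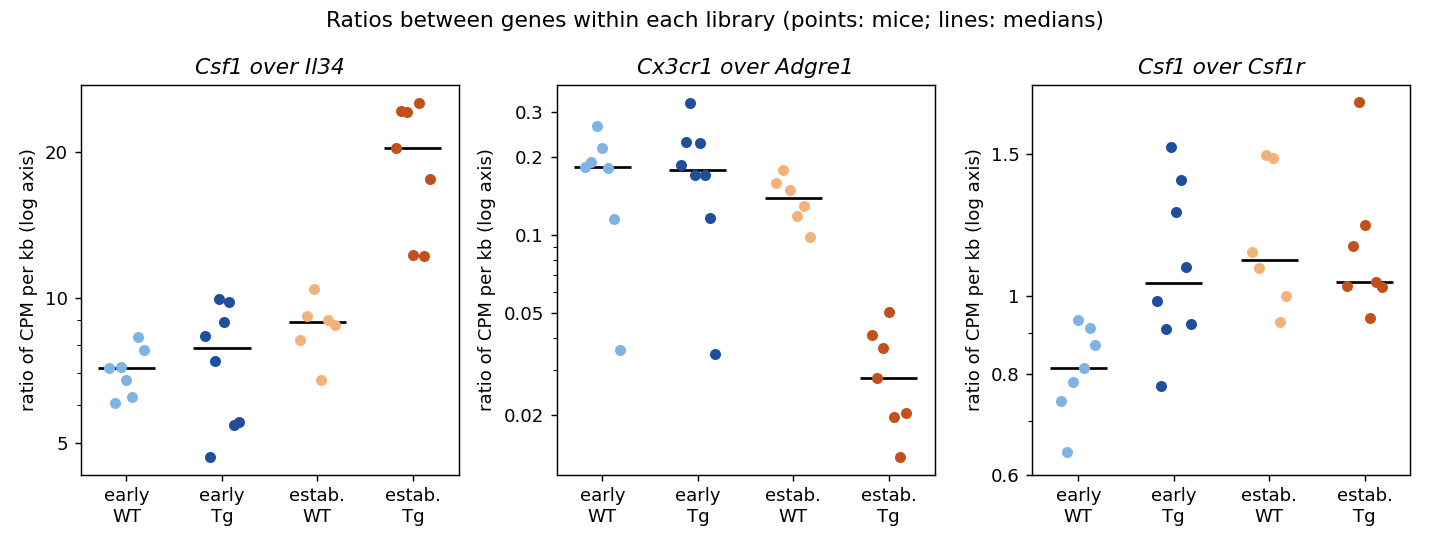
Ratios of CPM per kilobase of exon between genes of the same library (vertical log axes) for each mouse by group, with lines at the group medians. The established Fosl-2(Tg) mice lay between 12.2 and 25.4 for *Csf1* over *Il34* and between 0.0138 and 0.0502 for *Cx3cr1* over *Adgre1*, apart from the established WT mice in both, whereas *Csf1* over *Csf1r* overlapped.

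Between the stages, 1 of 10 genes differed in WT mice, where 5.81% of 16082 genes were called. *Adgre1* was lower in the established cohort by -0.77 on the log2 scale (SE 0.17, FDR = 0.00835), and all 6 established WT mice were below the early WT range. In Fosl-2(Tg) mice, where 47.8% of genes were called, 3 of 10 differed. *Cx3cr1* was lower by -2.43 (SE 0.38, FDR = 1.08e-05), *Il34* was lower by -0.92 (SE 0.17, FDR = 0.000104), and *Csf1* was higher by 0.37 (SE 0.15, FDR = 0.0392). The corresponding values in WT mice were -1.02 (FDR = 0.0980) for *Cx3cr1*, -0.09 (FDR = 0.816) for *Il34* and 0.21 (FDR = 0.450) for *Csf1*.

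Mice of the same group also differed from one another, and these deviations were compared between genes on log2 CPM after the mean of each group had been subtracted (28 mice, 45 pairs, permutation within groups, two-sided, Benjamini-Hochberg adjustment over the pairs). Of the 45 pairs, 15 correlated positively and 4 negatively at an adjusted p of at most 0.05. *Adgre1*, *Cd68*, *Lyz2*, *Aif1* and *Tyrobp* varied together, with r of 0.52 to 0.85 in their 10 pairs, all of which passed over the 28 mice. Single groups gave lower values for some pairs, namely 0.05 for *Cd68* with *Lyz2* and 0.12 for *Cd68* with *Tyrobp* in early WT and 0.20 for *Lyz2* with *Aif1* in early Fosl-2(Tg) mice. The highest was *Lyz2* with *Tyrobp* (r = 0.85, rho = 0.81, adjusted permutation p = 0.00015 and 0.0003; r = 0.80 without the 2 mice farthest on *Lyz2*), and r was 0.62 to 0.97 in the 4 groups taken singly. *Mertk* correlated negatively with 4 of these 5 genes, and its pair with *Cd68* did not pass (r = -0.46, rho = -0.37, adjusted permutation p = 0.0639 and 0.138; r = -0.27 without the 2 farthest mice). Its correlation with *Adgre1* was r = -0.78 and rho = -0.76 (adjusted permutation p = 0.00015 and 0.0003), was -0.69 without the 2 mice farthest on *Adgre1*, and was -0.71, -0.77, -0.92 and -0.83 in early WT, early Fosl-2(Tg), established WT and established Fosl-2(Tg) mice. *Csf1r* followed *Cd68* (r = 0.69, rho = 0.72, adjusted permutation p = 0.000337 and 0.00045), with r of 0.67 without the 2 farthest mice and 0.52 to 0.90 within the groups. Of its 9 pairs, *Csf1* passed only with *Csf1r* (r = 0.54, rho = 0.54, adjusted permutation p = 0.0159 and 0.0166; r = 0.48 without the 2 farthest), and within groups that value ranged from 0.03 in established WT to 0.93 in early WT mice. *Cx3cr1* had r of 0.18 with *Adgre1*, 0.26 with *Cd68*, -0.20 with *Lyz2*, 0.19 with *Aif1* and -0.17 with *Tyrobp*, and none of these pairs passed. Its pair with *Csf1r* passed on rho only (r = 0.42, rho = 0.54, adjusted permutation p = 0.0978 and 0.0148).

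**Figure D4:**
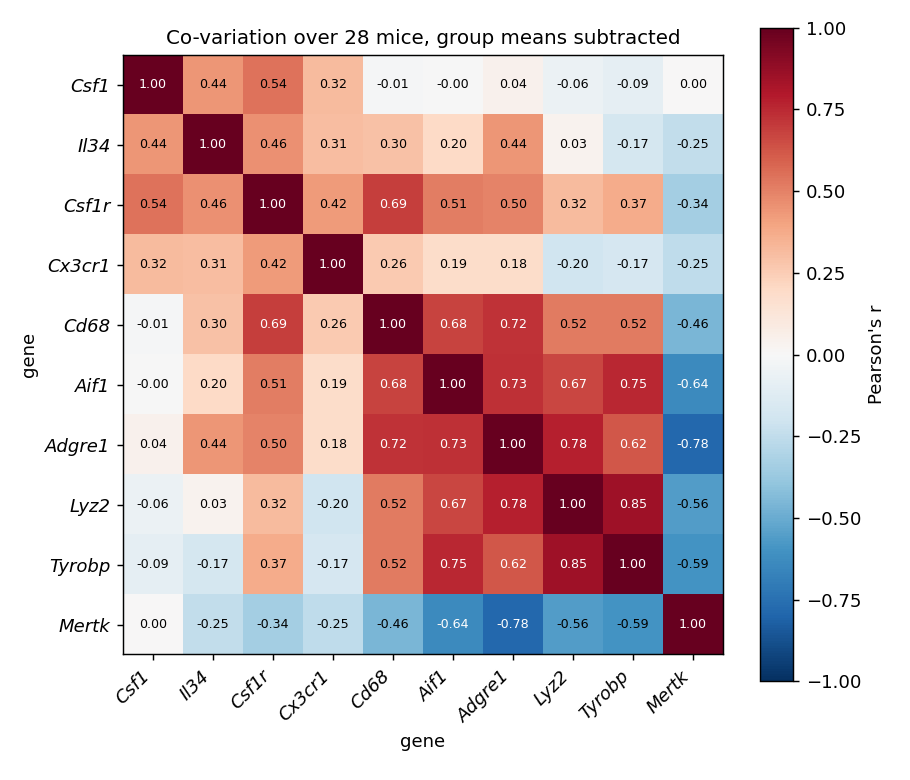
Pearson's r between the 10 genes (both axes) over 28 mice on log2 CPM with group means subtracted; red is positive and blue negative. *Adgre1*, *Cd68*, *Lyz2*, *Aif1* and *Tyrobp* form a block of positive values from 0.52 to 0.85, and *Mertk* is negative with each of these 5 genes.

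The genes that varied most like *Csf1r* over the 28 mice were *Tnfrsf11a*, encoding the osteoclast receptor RANK (r = 0.92), *Spi1*, encoding PU.1 (0.92), *Cybb* (0.91), *Ikzf1* (0.90), *Abcc3* (0.89), *Arhgap9* (0.89), *Pik3ap1* (0.89) and *Nfam1* (0.88). The same search for the other 9 genes was added after the values were seen, and in each case the first 2 genes are given. They were *Ctsc* and *Cysltr1* for *Adgre1* (0.87 and 0.83), *Fmod* and *Chad* for *Il34* (0.89 and 0.88), *Shisa5* and *Tmem63a* for *Csf1* (0.86 and 0.85), *Gmfg* and *Cd53* for *Tyrobp* (0.89 and 0.86), *Ncdn* and *Hmg20b* for *Cx3cr1* (0.82 and 0.80), and *Zhx3* and *Usp54* for *Mertk* (0.80 and 0.78). For *Cd68* they were *Blnk* and *Myo1g* (both 0.82), for *Lyz2* *Cd53* and *Gmfg* (both 0.86), and for *Aif1* *Clec12a* and *Clec4a2* (0.80 and 0.78). *Fmod* and *Chad* encode fibromodulin and chondroadherin, matrix proteins of tendon and cartilage, whereas most of the genes listed for *Csf1r*, *Adgre1*, *Lyz2* and *Tyrobp* are expressed by myeloid cells.

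Genes of other cell types moved beside these results. Of 8 tendon genes 4 fell in established Fosl-2(Tg) tendons, where 3.37% of all genes tested were called as lower. Among the 4 were *Col1a1* (-2.50, FDR = 0.0356), *Col1a2* (-2.23, FDR = 0.0367) and *Tnmd*, encoding tenomodulin (-2.03, FDR = 0.0386). The list summed to 91639 to 185180 CPM in established WT and to 3526 to 74654 CPM in established Fosl-2(Tg) mice, and none of its genes was at 0. *Il34* correlated with the mean of this list (r = 0.74, rho = 0.43, adjusted permutation p = 0.0132 and 0.286 over 30 such relations). Without the 2 mice farthest on the list r was 0.40, so that the relation depended in part on those mice. Within groups r was 0.19 in early WT, -0.06 in early Fosl-2(Tg), 0.60 in established WT and 0.96 in established Fosl-2(Tg) mice. *Il34* was also lower in mice with more muscle transcripts (r = -0.65, rho = -0.62, adjusted permutation p = 0.00480 and 0.0315). Without the 2 farthest mice that r was -0.64, and within groups it was -0.90 to -0.15. With the muscle score as a covariate the established log2 fold change of *Il34* was -1.02 (FDR = 0.00376). None of the 12 muscle genes passed at either stage, and their summed medians were 2182 CPM in established WT and 456 CPM in established Fosl-2(Tg) mice. The part of the tendon genes in the fall of *Il34* was not tested.

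Osteoclast genes, which mark another CSF1R-dependent cell type, split. *Atp6v0d2*, a subunit of the proton pump, rose by 2.53 (SE 0.49, FDR = 0.0153) and *Acp5*, encoding tartrate-resistant acid phosphatase, by 1.40 (SE 0.38, FDR = 0.0450), while *Ctsk*, encoding cathepsin K and also expressed by fibroblasts, fell by 1.19 (SE 0.32, FDR = 0.0442), of 4 genes tested at the established stage, where 6.51% of all genes tested were called. None of 3 passed early, with *Atp6v0d2* at 1.05 (FDR = 0.624) and *Acp5* at 0.65 (FDR = 0.657). No gene of the monocyte, neutrophil, dendritic cell, B cell, T and NK cell, mast cell, erythroid, keratinocyte, endothelial or Schwann cell lists passed within either cohort. Between the cohorts, however, the genotype effect differed for 4 of 5 tested erythroid genes, all globin genes, for *Batf3* of the dendritic cell list (2.53, FDR = 0.0124) and for *Mbp* of the Schwann cell list (1.27, FDR = 0.0457), where 7.43% of all genes tested were called. The erythroid genes had median log2 fold changes of -0.99 early and 2.38 established, and a median difference of 4.95 between the stages, with *Hbb-bs*, a beta-globin gene, at -2.27 (FDR = 0.442), 3.06 (FDR = 0.0594) and 5.33 (FDR = 0.00693). Their summed level was 8.50 to 33.2 CPM in early WT, 7.79 to 11.3 CPM in early Fosl-2(Tg), 8.94 to 20.1 CPM in established WT and 10.3 to 127 CPM in established Fosl-2(Tg) mice. Of the lists without a call within a cohort, the monocyte chemokine receptor gene *Ccr2* had log2 fold changes of 1.59 early (FDR = 0.564) and 2.44 established (FDR = 0.0853), and the monocyte list summed to 20.8 to 105 CPM in the early and 24.6 to 82.2 CPM in the established mice. The dendritic cell list summed to 15.2 to 31.2 CPM in established WT and 25.4 to 50.4 CPM in established Fosl-2(Tg) mice, with *Batf3* at 1.16 (FDR = 0.149) and *Clec9a* at 0.82 (FDR = 0.186).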

How the data were processed

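The data are 28 bulk RNA-sequencing libraries of tail tendon, 1 per mouse. The authors depleted ribosomal RNA, mapped paired reads with STAR to GRCm39 (GENCODE M26) and counted them with featureCounts, and the deposited values are raw counts per gene, not normalized. The strand setting and the treatment of multi-mapping reads are not given in the sources used here. Groups came from the labels. Names were taken from GENCODE M39, which matched 25505 of 25719 identifiers.

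Genotypes were tested separately in the early and the established cohort with edgeR 4.0.16 in R 4.3.3 (TMM scaling, filterByExpr with a minimum count of 10, quasi-likelihood test, Benjamini-Hochberg FDR over all genes tested, threshold 0.05). One fit of the 4 groups gave the interaction and stage differences. Log2 CPM used a prior count of 2. No library pair of a group agreed within sampling noise. Alternatives used DESeq2 1.42.0, limma 3.58.1 voom, other scalings, filters, genes left out, covariates, females only, and each library left out. Deviations from group means of same-numbered early mice correlated at 0.14 to 0.40 in all 7 pairs. Mice with different numbers were not compared in this way, so these values do not show that the numbers pair the mice. The labels state no pairing. All 10 genes are named, and from each list up to 3 genes with the smallest FDR among those called, or 2 with the smallest p where none was. The members and the lists were chosen with earlier results of these data known. The fits were tested on simulated data. Figures were drawn with matplotlib 3.10.9. Counting depth limits mainly *Aif1* and *Cx3cr1*. The authors' comparisons were not used.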

Additional observations from a re-analysis of the deposited data

Results flagged for a closer look

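*Aif1* in established WT mouse 6 was at 3.37 CPM, far above the other 5 mice of its group, which were at 0.867 to 1.77 CPM. It was the only one of 40 group values (10 genes in 4 groups) with a mouse that stood apart in this way, and chance gives about 1 in 20. Without this mouse the established log2 fold change of *Aif1* was -0.13 (FDR = 0.807), and with it -0.39 (FDR = 0.443).

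The genotype effect of *Adgre1* differed between the cohorts by 0.97 on the log2 scale (edgeR interaction term, FDR = 0.0132), with 8 of 8 early Fosl-2(Tg) mice below the early WT mean and 6 of 7 established Fosl-2(Tg) mice above the established WT mean. The effect of *Il34* differed by -0.84 (FDR = 0.0388), with 4 of 8 early and 7 of 7 established Fosl-2(Tg) mice below the WT mean of their cohort. Cohort and sex cannot be told apart in either difference. Without the 2 established males these values were 1.07 (FDR = 0.00730) and -0.76 (FDR = 0.0431). The difference for *Adgre1* passed in all 8 alternatives, and that for *Il34* in 6 of 8, missing the threshold on plain library totals (-0.35, FDR = 0.249) and without a filter on low counts (FDR = 0.05001).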

How the results depend on the processing

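Of 10 genes, 1 (*Adgre1*) passed early with DESeq2, which called 25 genes in all. *Adgre1* alone also passed with the replicate block, which called 11 genes in all beside 6. In the established cohort the deviations of same-numbered mice correlated at -0.22 to 0.69. There the replicate block called 924 genes beside 1032 and the same 2 members (*Cx3cr1* FDR = 0.0246, *Il34* FDR = 0.0254). Without scaling for composition, on plain library totals, the median of all genes moved by 0.33 established, 0.53 in the interaction and -0.19 early. With these totals 7 members passed established, 5 of them higher and 2 lower (beside 0 and 2), with a median of 0.44. Among the 15862 genes tested 7544 were called there, 7236 of them higher. In the interaction 7 members passed, where 8091 of 16082 genes were called. Relative to that median of all genes, *Adgre1* was at 0.42, *Mertk* at 0.36 and *Csf1r* at 0.19, close to the values with TMM. The interaction called 1 member without a filter on low counts, 4 with DESeq2 and 4 with voom. These fits called 887 of 22323, 1779 of 22323 and 1951 of 16082 genes. Alternatives for the stage differences were chosen after seeing the data. These differences called 4 members in the 2 genotypes together, 9 on plain totals and 10 with voom. Of 16082 genes, the main fit called 935 in WT and 7685 in Fosl-2(Tg) mice, plain totals 2374 and 12836, and voom 2145 and 8889. *Il34* missed the interaction threshold on plain totals (-0.35, FDR = 0.249) and without a filter (-0.85, FDR = 0.05001). Apart from the values on plain totals that follow from the shift, the cause was not tested.

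Leaving out 1 mouse at a time gave 1 to 2 established and 0 early members past the threshold, and medians of 0.05 to 0.16 and -0.33 to -0.19. Changes of sign were limited to values near 0: *Csf1* early was -0.18 on plain totals, -0.00053 without a filter, -0.00054 with a mean of at least 1 CPM, -0.11 with voom, and -0.092 to 0.080 with a mouse left out. *Il34* early was 0.063 with the muscle score and -0.14 to 0.0024 with a mouse left out, *Cd68* early was 0.034 with the muscle score, and *Mertk* early -0.050 on plain totals. *Cd68* established was -0.087 with the replicate block and -0.095 to 0.15 with a mouse left out, and *Tyrobp* established -0.027 to 0.29. Of 580 fold changes of single genes compared, 532 kept direction and side of the threshold.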
